A study of Homo sapiens with 2 samples.

Results

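The genes described here are 9 genes around the transcription factor NRF2: NFE2L2, which encodes NRF2, its repressor gene KEAP1, the autophagy receptor gene SQSTM1, and the NRF2 target genes NQO1, TXNRD1, SRXN1, GCLC, GCLM and HMOX1. They were picked by gene symbol in GENCODE release 29, and transcripts were joined to them by Ensembl transcript identifier in each library. All 9 were found among 49974 genes listed, and all 9 belong to the 11186 genes with a mean level of at least 1 FPKM (fragments counted per kilobase of a transcript and relative to library size).

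The study asked what the RNA-binding protein RBMS1 controls in triple-negative breast cancer cells. RNA-seq was performed on MDA-MB-231, a line of human triple-negative breast cancer cells grown in L15 medium with serum, with 1 library from cells with stable RBMS1 knockdown and 1 library from control cells. In the study's methods, stable lines were made with lentiviral shRNA in the plasmid pLKO.1 and kept in puromycin. The methods name the empty vector, without a hairpin, as the negative control. Both labels carry the name of that vector, and the labels name neither the hairpin used for the library nor a clone. With 1 library per group no difference has a replicate check, and no p-value was computed. Effects of the knockdown, of carrying any hairpin and of the culture or library cannot be told apart.

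The files hold no counts, but the low values reveal the depth. Among reference transcripts of at least 1500 nt from genes with a single transcript, FPKM rose in steps whose size depends on length. Read as single fragments, these steps put the depth at about 44100000 fragments in knockdown cells and about 40400000 fragments in control cells. Of the 605 such transcripts under 5.5 fragments in knockdown cells, 99.0% came out within 0.1 of a whole fragment, and in control cells 98.4% of 609 did. The precision of a value was therefore similar in both libraries.

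NRF2 is a basic leucine zipper factor that is made continuously and destroyed continuously. KEAP1 binds it and delivers it to a CUL3 ubiquitin ligase. Oxidants and electrophiles modify KEAP1, NRF2 then escapes and, with a small MAF protein, binds antioxidant response elements in genes for glutathione synthesis, thioredoxin recycling, quinone reduction and haem breakdown. SQSTM1, also called p62, carries ubiquitinated cargo to autophagosomes and binds KEAP1, which releases NRF2, and the SQSTM1 gene is itself an NRF2 target. NRF2 is controlled largely at the protein level, which RNA-seq does not measure.

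RBMS1 (ENSG00000153250), the targeted gene, was examined first as a check of the labels. It was at 3.76 FPKM in knockdown cells and at 24.1 FPKM in control cells. Knockdown cells thus held 15.6% of the control level, a log2 ratio of −2.40 on the scale of FPKM + 1, which is used for all log2 ratios here and understates differences of low genes. The values go the way the labels say.

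The cell line label was checked with marker genes. All 6 genes picked as high in MDA-MB-231 (VIM, CD44, MSN, PLAU, AXL and CAV1) were abundant, with a summed level of 1268 FPKM in knockdown cells and 1322 FPKM in control cells, led by VIM at 496 and 563 FPKM. ESR1, PGR and CDH1, which triple-negative mesenchymal cells lack, were at most at 0.0996 FPKM in either library. ERBB2 was at 7.50 FPKM in knockdown cells and 7.00 FPKM in control cells, and EPCAM at 1.93 and 3.66 FPKM. Of the 3 luminal genes, KRT19 was at 84.4 and 69.6 FPKM, GATA3 at 2.11 and 1.56 FPKM, and FOXA1 at 0.0422 and 0.266 FPKM. The 8 markers of blood, endothelium and fibroblasts were near 0. CD3E, CD68, CDH5 and PDGFRA were listed at 0 in both libraries, and the most abundant of the 8, COL1A1, was at 0.470 and 0.797 FPKM. A listed 0 is weak evidence that a gene is silent in these files, since the ferritin light chain gene FTL, which nearly all cells use, is also listed at 0 in both libraries while the authors' deposited table has it at 16.5 and 6.08 FPKM.

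Among the 9 genes, SQSTM1 stood apart. By summed FPKM it was the 1 gene of the 9 that was at least 2-fold lower in knockdown cells, against 2.8% of the 11186 genes, and 0 of the 9 were at least 2-fold higher, against 2.96%. TXNRD1 and SRXN1 were lower by less. For the other 6 genes the values of both libraries lay close together. Cufflinks, the program that assembled and quantified the transcripts, gives each transcript an interval for the uncertainty within its library. Summed over a gene, these intervals did not overlap between the libraries for 3 of the 9 genes (SQSTM1, TXNRD1 and SRXN1), all lower in knockdown cells, where this held for 11.5% of all genes, and for 0 of the 9 in the opposite direction, where it held for 13.3%. The intervals do not cover variation between cultures. The median log2 ratio of the 9 genes was −0.06, beside 0.02 over the 11186 genes.

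**Figure D1:**
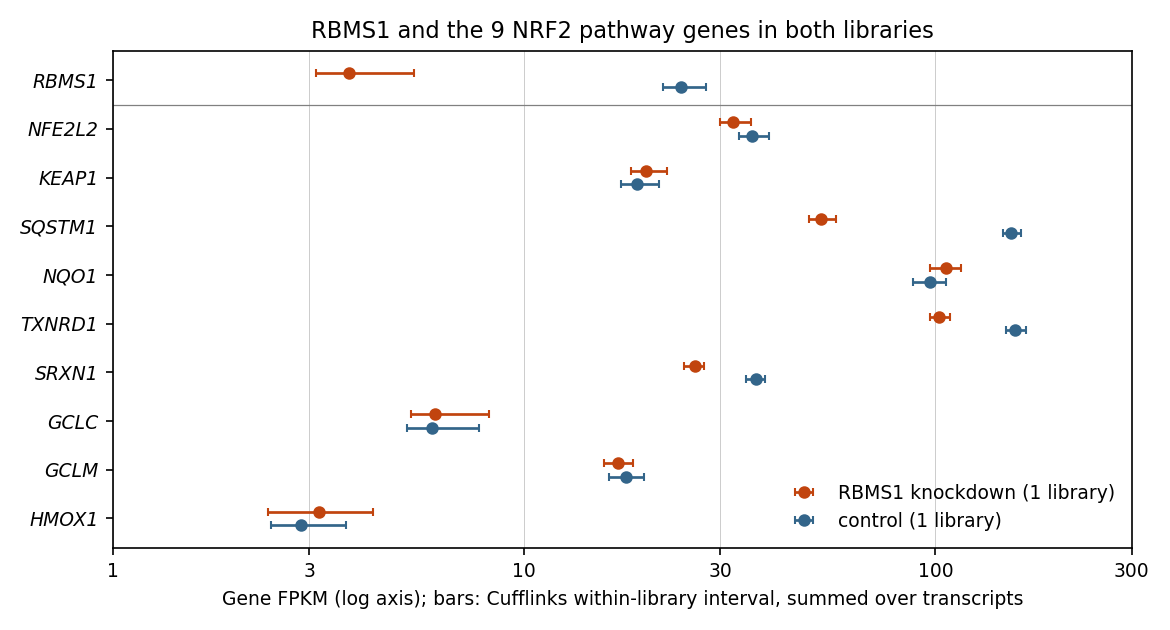
Level of RBMS1 and of the 9 genes in knockdown cells and in control cells (1 library each), as gene FPKM on a log axis, with bars for the Cufflinks within-library interval summed over transcripts. SQSTM1 lies at 52.7 FPKM in knockdown cells and 153 FPKM in control cells, and the bars of both libraries are apart for RBMS1, SQSTM1, TXNRD1 and SRXN1.

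SQSTM1 (ENSG00000161011) lies at chr5:179806398-179838078 of GRCh38 on the plus strand. Its level was 52.7 FPKM (interval 49.3 to 57.4) in knockdown cells and 153 FPKM (interval 146 to 161) in control cells. Knockdown cells thus held 34.5% of the control level, a log2 ratio of −1.52, and SQSTM1 had rank 197 from the largest decrease among the 11186 genes.

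These SQSTM1 values rest on transcripts that Cufflinks assembled from the reads. GENCODE lists 15 SQSTM1 transcripts in these files, and all 15 were listed at 0 in control cells, where the whole level of 153 FPKM sat on 1 assembled transcript of 9 exons and 1552 nt. In the knockdown library the reference transcript SQSTM1-202 (8 exons, 2986 nt) was at 21.2 FPKM and an assembled transcript of 10 exons and 1720 nt at 31.5 FPKM, which is 59.8% of the level of the gene there. With reference transcripts alone, SQSTM1 would be listed at 0 in control cells and above 0 in knockdown cells, the opposite order. With 1 FPKM added it would then count as at least 2-fold higher (log2 ratio 4.47), so in the library files its direction rests on counting the assembled transcripts.

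Both assembled SQSTM1 transcripts share an intron that GENCODE release 29 does not hold. It spans chr5:179836566-179837716, 1151 nt inside the last exon of SQSTM1-202, and takes out the last 25 bases of its coding sequence and 1126 of the 1488 exonic bases that follow. The control transcript has all 7 introns of SQSTM1-202 besides. The knockdown transcript has 6 of these 7 and an extra exon whose introns are annotated in other SQSTM1 transcripts. The unannotated intron starts with GT and ends with AG on the plus strand, the bases at the ends of most human introns. This describes the sequence and is no separate evidence for the intron. Its first 12 bases with the 12 exonic bases before them, all coding in SQSTM1-202 (chr5:179836554-179836577, plus strand, GRCh38, from the GENCODE transcript sequence, GT in capitals), show the junction that both libraries share:
SQSTM1 exon end and intron start: ggacaccatccaGTattcaaagca

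FPKM divides by transcript length, so a transcript of 1552 nt gets a higher value than one of 2986 nt from the same number of fragments. By the step size above, the SQSTM1 transcripts held about 4592 fragments in knockdown cells and 8033 in control cells. At equal library depth this is 52.4% of the control value, against 34.5% by summed FPKM, so by fragments SQSTM1 is not 2-fold lower. Coverage times length, put over the longest reference transcript and scaled to equal totals, gave 49.9 in knockdown cells and 103 in control cells, a log2 ratio of −1.03. SQSTM1 was thus lower in knockdown cells by each of these measures, and the size of the difference moved with how its transcripts were put together.

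The authors' deposited table of transcripts, from a separate estimate on annotated transcripts and on another scale, holds FPKM for 2 SQSTM1 transcripts. SQSTM1-202 was at 40.5 FPKM in knockdown cells and 83.0 FPKM in control cells there. SQSTM1-201 was at 17.5 FPKM in knockdown cells and 43.8 FPKM in control cells. Together they reached 58.0 and 127 FPKM, 45.7% of the control level. In that table SQSTM1-202 is above 0 in both libraries, in contrast to its value of 0 in control cells's own list. The table holds only transcripts kept after the authors' own comparison of the same libraries, so it is no independent measurement.

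MRNIP, a DNA repair gene named here because it overlaps SQSTM1 and after its values had been seen, lies on the minus strand, and 895 exonic bases of MRNIP-219 and SQSTM1-202 coincide. MRNIP was at 17.8 FPKM in knockdown cells and 31.9 FPKM in control cells (log2 ratio −0.81). The sources used here do not state whether the libraries keep the strand. Reads from the shared bases of both genes can then not be told apart, and the part of this overlap in the SQSTM1 values was not tested.

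TXNRD1 (ENSG00000198431, chr12:104215779-104350305, plus strand) encodes the cytosolic thioredoxin reductase. It was at 102 FPKM (interval 96.9 to 109) in knockdown cells and 156 FPKM (interval 148 to 166) in control cells (log2 ratio −0.61). In the transcript lists of the libraries, this direction depends on counting 1 assembled transcript of the control library. That transcript has 16 exons, includes all 14 introns of TXNRD1-205 plus an annotated further one at its 5′ end, and was at 75.7 FPKM, 48.5% of the control level of the gene. TXNRD1-205 was at 73.4 FPKM in knockdown cells and 42.6 FPKM in control cells, and TXNRD1-214 at 28.4 and 37.6 FPKM. With reference transcripts alone the gene sums are 102 and 80.2 FPKM, and the log2 ratio turns to 0.34. Coverage times length, which also counts the assembled transcript, gave −0.59. Estimated fragments, which count it too, were 16548 in knockdown cells and 22594 in control cells, 67.1% of the control value at equal depth. The authors' deposited table holds only transcripts kept after their own comparison, and TXNRD1 has 5 entries there. They sum to 185 FPKM in knockdown cells and 299 FPKM in control cells, so the sum of these selected entries is lower in knockdown cells. TXNRD1-205 was at 121 and 184 FPKM, TXNRD1-214 at 32.9 and 55.4 FPKM, TXNRD1-213 at 25.9 and 58.0 FPKM and TXNRD1-201 at 0.961 and 2.17 FPKM. TXNRD1-208 went the other way, at 4.06 and 0 FPKM.

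SRXN1 (ENSG00000271303, chr20:646615-653370, minus strand) encodes sulfiredoxin, which restores oxidised peroxiredoxins. It has the simplest structure of the 9 in these lists, with all of its level on 1 reference transcript of 2 exons. It was at 26.0 FPKM (interval 24.5 to 27.4) in knockdown cells and 36.6 FPKM (interval 34.7 to 38.6) in control cells. This is 70.8% of the control value, with a log2 ratio of −0.48. The same transcript was at 47.5 and 67.9 FPKM in the authors' deposited table, 69.9% of the control level. In the transcript lists of the libraries, SRXN1 is thus the gene among SQSTM1, TXNRD1 and SRXN1 whose lower value does not rest on any assembled transcript.

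The regulators themselves differed little. NFE2L2 (ENSG00000116044, chr2:177227595-177392697, minus strand) was at 32.2 FPKM (interval 29.9 to 35.5) in knockdown cells and 35.7 FPKM (interval 33.2 to 39.4) in control cells (log2 ratio −0.15) with overlapping intervals. Its level was divided between 2 reference transcripts that differ in their first exon. NFE2L2-201 held 55.6% of it in knockdown cells and 65.3% in control cells, and NFE2L2-202 held the rest. NFE2L2-201 alone was at 17.9 and 23.3 FPKM, with separate intervals, and NFE2L2-202 alone was at 14.3 and 12.4 FPKM, with overlapping ones. KEAP1 (ENSG00000079999, chr19:10486120-10503741, minus strand) was at 19.8 FPKM (interval 18.2 to 22.2) in knockdown cells and 18.8 FPKM (interval 17.2 to 21.2) in control cells (log2 ratio 0.08). KEAP1-202 was the main transcript in both, with 77.3% and 79.5% of the level.

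As gene sums, NQO1, GCLC, GCLM and HMOX1 showed no difference beyond the within-library intervals. NQO1 (ENSG00000181019, chr16:69706996-69726951, minus strand), the quinone reductase often read as an NRF2 reporter, was at 106 FPKM (interval 96.8 to 115) in knockdown cells and 97.2 FPKM (interval 88.3 to 106) in control cells (log2 ratio 0.12). All 4 NQO1 transcripts above 0 were reference transcripts present in both libraries. The most abundant, NQO1-206, was at 43.5 and 40.6 FPKM. NQO1-202 alone was at 28.1 FPKM in knockdown cells and 22.1 FPKM in control cells, with separate intervals, and the intervals of the other transcripts overlapped. The intervals of the gene sum allow a log2 ratio of NQO1 from −0.13 to 0.38, so no direction can be read for the gene.

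GCLC and GCLM encode the catalytic and the modifier subunit of glutamate-cysteine ligase, the first enzyme of glutathione synthesis. GCLC (ENSG00000001084, chr6:53497341-53616970, minus strand) was at 6.06 FPKM (interval 5.32 to 8.21) in knockdown cells and 5.97 FPKM (interval 5.20 to 7.78) in control cells. GCLM (ENSG00000023909, chr1:93885205-93909456, minus strand) was at 16.9 FPKM (interval 15.6 to 18.4) in knockdown cells and 17.7 FPKM (interval 16.0 to 19.6) in control cells. The log2 ratios were 0.02 for GCLC and −0.06 for GCLM, and the modifier subunit had the higher FPKM in both libraries. For GCLC each library held 1 assembled transcript beside GCLC-201, and leaving them out moved the ratio only to 0.08. For GCLM the control library held 4.60 FPKM on an assembled transcript, without which the log2 ratio was 0.35. GCLM-201 alone was at 12.3 FPKM in knockdown cells and 7.49 FPKM in control cells, with separate intervals. GCLM-204 alone was at 4.63 and 5.59 FPKM, with overlapping ones.

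HMOX1 (ENSG00000100292, chr22:35380361-35394214, plus strand), the inducible haem oxygenase, was the least abundant of the 9. It was at 3.17 FPKM (interval 2.39 to 4.29) in knockdown cells and 2.86 FPKM (interval 2.42 to 3.68) in control cells, from about 212 and 182 fragments. The log2 ratio was 0.11 with an assembled transcript of the knockdown library counted in and −0.44 with HMOX1-201 alone. The range that the intervals of the gene sum allow is −0.47 to 0.63. HMOX1-201 alone was at 1.85 FPKM (interval 1.45 to 2.25) in knockdown cells and 2.86 FPKM (interval 2.42 to 3.31) in control cells, with separate intervals. Since the sign turns with the assembled transcript, no direction can be read for the gene.

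**Figure D2:**
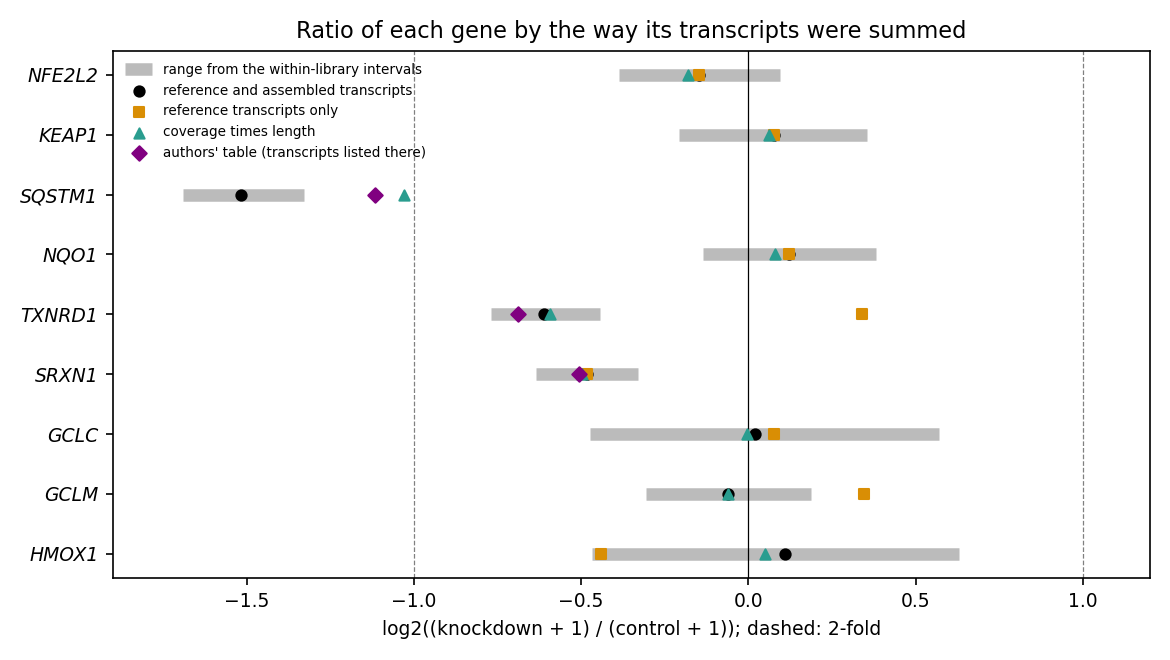
log2 ratio of knockdown over control for each of the 9 genes (1 library per group) with assembled transcripts, with reference transcripts only, by coverage times length, and from the authors' table where it covers at least 25% of the control level, with grey bars for the range that the within-library intervals allow. SQSTM1 lies between −1.52 and −1.03 where a ratio is drawn (none with reference transcripts only), TXNRD1 turns from −0.61 to 0.34 without assembled transcripts, and SRXN1 has no such shift.

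The levels can also be put in order within each library. In the control library TXNRD1 (156 FPKM) and SQSTM1 (153 FPKM) led with overlapping intervals, followed by NQO1 (97.2 FPKM), SRXN1 (36.6 FPKM) and NFE2L2 (35.7 FPKM), the last 2 overlapping. In the knockdown library NQO1 (106 FPKM) and TXNRD1 (102 FPKM) led with overlapping intervals, SQSTM1 was at place 3 with 52.7 FPKM, and NFE2L2 (32.2 FPKM) was ahead of SRXN1 (26.0 FPKM). KEAP1, GCLM, GCLC and HMOX1 followed in this order in both libraries, and KEAP1 and GCLM overlapped in each. This order is that of summed FPKM. By coverage times length, knockdown cells had TXNRD1 at 123, NQO1 at 52.0 and SQSTM1 at 49.9, and control cells had TXNRD1 at 186, SQSTM1 at 103, NQO1 at 49.2 and SRXN1 at 48.4.

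The antioxidant response element to which NRF2 binds was searched as its core TGACNNNGC, or GCNNNGTCA on the other strand, in RefSeq promoter windows of GRCh38.p14 from 250 bases before to 50 bases after a start site. The core is short and partly overlaps the binding sequence of AP-1. It was found in 13.3% of 35116 windows of all genes. Windows were on hand for 8 of the 9 genes, not for HMOX1, and 4 of their 13 windows held it, in GCLM, KEAP1 and TXNRD1. A match on the other strand is shown for each of these 3 genes with 10 bases on each side and the core in capitals, for GCLM (chr1:93909446-93909474, minus strand, 34 bases before the start), KEAP1 (chr19:10502784-10502812, minus strand, 31 bases before the start) and the downstream start of TXNRD1 (chr12:104286920-104286948, plus strand, 102 bases before the start):
GCLM: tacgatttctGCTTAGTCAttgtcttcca
KEAP1: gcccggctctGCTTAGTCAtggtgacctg
TXNRD1: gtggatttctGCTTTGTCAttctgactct
Of these 3 genes TXNRD1 was lower in knockdown cells with assembled transcripts counted in, and GCLM and KEAP1 as gene sums were not beyond their intervals. The windows of SQSTM1, SRXN1, NFE2L2, NQO1 and GCLC did not hold these letters. Bases outside the windows were not searched, so a missing match does not mean that a gene lacks the element. A match describes the sequence alone and says nothing about binding in these cells.

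Beyond the 9 genes, 45 further NRF2 targets in 6 functional lists were described, of which 35 passed the filter of 1 FPKM on the mean. Of these 35, 1 was at least 2-fold lower in knockdown cells (MGST1) and 2 at least 2-fold higher (IDH1 and AKR1C3), against the 2.8% and 2.96% of all genes. Their median log2 ratio was −0.08. Within-library intervals lay apart for 8 of the 35 that were lower (22.9%, against 11.5% of all genes) and for 5 that were higher (14.3%, against 13.3%). No test of these shares was made.

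In glutathione metabolism and transport the median log2 ratio of the 8 genes above the filter was −0.12. Of these 8, 7 had a ratio below 0, where 47.2% of all genes did, and 3 (SLC7A11, GSTP1 and MGST1) had separate intervals, 37.5% of the list against 11.5% of all genes. ABCC1 at −0.02 and GSR at −0.04 count among the 7. MGST1, a membrane-bound glutathione transferase, had the largest decrease of this list, with 41.0 FPKM in knockdown cells and 90.3 FPKM in control cells (log2 ratio −1.12). SLC7A11, the cystine carrier that feeds glutathione synthesis, was named after its value had been seen. It was at 6.85 and 14.3 FPKM, 47.9% of the control level. With 1 FPKM added the log2 ratio was −0.96, so SLC7A11 is not counted among the genes past 2-fold, and it was −0.93 with reference transcripts alone. At the other end ABCC3, a conjugate export pump, was at 6.09 and 4.14 FPKM with overlapping intervals (log2 ratio 0.46), and its ratio was 0.98 with reference transcripts alone and 0.01 by coverage times length. The most abundant gene, GSTP1, was at 151 and 171 FPKM.

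In the thioredoxin and peroxiredoxin list none of the 4 genes was 2-fold different, beside 2.8% lower and 2.96% higher over all genes, and the median was −0.22 by FPKM and −0.04 by coverage times length. Intervals lay apart for 2 of the 4 that were lower, against 11.5% of all genes, and 0 that were higher. TXN, thioredoxin, named after its value had been seen, was at 235 FPKM in knockdown cells and 295 FPKM in control cells with separate intervals, a log2 ratio of −0.33, and −0.35 by coverage times length. PRDX6 was at 88.8 FPKM in knockdown cells and 116 FPKM in control cells, but without an assembled control transcript its log2 ratio turned from −0.39 to 0.16, and by coverage times length it was 0.06. PRDX1, the most abundant by the mean of both libraries though not in control cells, was at 269 and 289 FPKM, and CAT, catalase, at 13.3 and 12.3 FPKM. For genes that supply NADPH the median was 0.18, and IDH1, the cytosolic isocitrate dehydrogenase, was higher in knockdown cells, at 9.49 against 3.98 FPKM (log2 ratio 1.07). TALDO1, of the pentose phosphate pathway, was at 70.6 and 83.2 FPKM, and TKT, the most abundant, at 106 and 112 FPKM. Intervals of the 6 NADPH genes lay apart for 3 that were higher, against 13.3% of all genes, and 1 that was lower, 16.7% against 11.5%, and apart from IDH1 all lay within 2-fold.

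Among quinone and carbonyl detoxification genes, 7 of 12 passed the filter, with a median of 0.21 and separate intervals for 0 that were lower and 2 that were higher (28.6%, against 13.3% of all genes). AKR1C3, an aldo-keto reductase, was at 31.9 FPKM in knockdown cells and 10.1 FPKM in control cells (log2 ratio 1.56). AKR1C1 was listed at 0 and AKR1C2 was under 1 FPKM in both libraries. The authors' deposited table, which holds only transcripts kept after their comparison, has AKR1C1-203 at 3.35 FPKM in knockdown cells and 0.547 FPKM in control cells. There AKR1C1-202 was at 0.919 and 0.353 FPKM and AKR1C2-202 at 0.664 and 0.0928 FPKM. By coverage times length the log2 ratio of AKR1C3 was 1.48. These genes are related in sequence and reads can be divided between them, and the part of this in the AKR1C3 level was not tested. CBR3, a carbonyl reductase, was at 7.32 and 9.76 FPKM with overlapping intervals, and without an assembled control transcript its log2 ratio turned from −0.37 to 0.35. AKR1B1, the most abundant, was at 73.9 and 82.9 FPKM.

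The haem and iron list had a median of −0.04, with SLC48A1, a haem transporter, at 4.38 FPKM in knockdown cells and 5.57 FPKM in control cells and BLVRA, a biliverdin reductase, at 20.4 and 17.4 FPKM. FTH1, the ferritin heavy chain, was the most abundant gene of all lists, at 884 and 906 FPKM. FTL, the ferritin light chain, was listed at 0 in both libraries, as given above for the marker check. Intervals of the haem and iron genes overlapped for all 5 above the filter. Among the other NRF2 targets (median −0.33), intervals lay apart for 2 of 5 that were lower (40.0%, against 11.5% of all genes) and 0 that were higher. TRIM16L was at 13.6 and 20.8 FPKM and its near-copy TRIM16, the most abundant by the mean of both libraries, at 18.2 and 23.1 FPKM, and reads of this pair can be divided between them. HTATIP2, named after its value had been seen, was above TRIM16 in knockdown cells, at 22.8 FPKM, and at 17.3 FPKM in control cells. PIR, a nuclear protein that binds iron, was at 4.67 and 3.26 FPKM.

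Of 21 partners and regulators of NRF2, 20 passed the filter, 0 were 2-fold different, beside the same 2.8% and 2.96% of all genes, and the median was −0.05. CDKN1A, which encodes p21 and can shield NRF2 from KEAP1, had the largest decrease, at 19.1 FPKM in knockdown cells and 32.4 FPKM in control cells (log2 ratio −0.74). DPP3, a peptidase that binds KEAP1, was at 35.5 and 23.7 FPKM (log2 ratio 0.57). NFE2L3, the NRF2 relative, was the most abundant by the mean of both libraries, at 35.3 and 40.7 FPKM, although DPP3 was level with it in knockdown cells. Including these, intervals lay apart for 3 genes that were lower (CDKN1A, MAFF and AMER1) and 3 that were higher (DPP3, RBX1 and PGAM5), 15.0% of the list each way, near the 11.5% and 13.3% of all genes. PGAM5 turned from a log2 ratio of 0.32 to −0.12 by coverage times length.

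SQSTM1 was also set beside other autophagy genes. Of 18 receptors and ATG8 proteins, 16 passed the filter, their median log2 ratio was 0.11, 0 were at least 2-fold lower and 1 (BNIP3L) was at least 2-fold higher, beside 2.8% and 2.96% of all genes, shares at which a count of 0 in a list of this size is no finding. Intervals lay apart for 0 that were lower, against 11.5% of all genes, and 3 that were higher (18.8%, against 13.3%). These 3 are BNIP3L, FUNDC1 and GABARAPL2. GABARAPL2, an ATG8 protein named after its value had been seen, was at 22.0 FPKM in knockdown cells and 16.3 FPKM in control cells. Its log2 ratio was 0.41, also with reference transcripts alone, and 0.40 by coverage times length. For FUNDC1 the log2 ratio turned from 0.66 to −0.35 without an assembled transcript of the knockdown library, and it was 0.45 by coverage times length. TOLLIP had the largest decrease, at 9.34 FPKM in knockdown cells and 12.8 FPKM in control cells with overlapping intervals, and by coverage times length its log2 ratio was 0.01. BNIP3L, a mitophagy receptor, was at 11.6 FPKM in knockdown cells and listed at 0 in control cells, so no fold is given. Its count as 2-fold higher rests on this listed 0, which is weak evidence, as given above for FTL. The same holds for 304 of the 644 genes past 2-fold. GABARAP, an ATG8 protein and the most abundant, was at 126 and 119 FPKM.

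The 9 signalling partners of SQSTM1 had a median of −0.05, and 0 of the 9 were 2-fold different, beside 2.8% lower and 2.96% higher over all genes. Intervals lay apart for 0 that were lower and 1 that was higher (11.1%, against 13.3%). PRKCZ, an atypical protein kinase C, was at 2.42 FPKM in knockdown cells and 3.68 FPKM in control cells with overlapping intervals, and PRKCI, its close relative and the most abundant by the mean of both libraries, at 13.6 and 15.0 FPKM. RPTOR, the mTORC1 scaffold, was at 16.9 and 10.9 FPKM (log2 ratio 0.59), but without an assembled transcript of the knockdown library this turned to −0.25.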

How the data were processed

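RNA-seq of 2 MDA-MB-231 libraries was used. The submitters' processing notes name Bowtie2 2.0.6, TopHat2 2.0.9, Cufflinks 2.1.1 and Cuffdiff 2.1.1. The authors deposited, for each library, reference and assembled transcripts with FPKM, interval and coverage from Cufflinks, and a table of 7236 transcripts with FPKM in both libraries. The table also holds the authors' fold changes, p-values and q-values, which were not used. The build is not given in the sources used here; 98.8% of reference transcripts matched GENCODE release 29 by identifier, and 97.3% of these had its GRCh38 start and end.

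Gene FPKM was the sum over reference transcripts and over assembled transcripts with at least 1 intron in common on that strand; a transcript matching several genes went to that sharing most introns. Assembled transcripts matching no gene were left out; gene values held 29.1% (knockdown) and 28.1% (control) of the listed FPKM, but 72.4% and 71.7% of coverage times length. The pseudocount was 1 FPKM, the filter a mean of at least 1 FPKM, and a 2-fold difference a log2 ratio of at least 1 in size. Of the 644 genes past it (313 lower, 331 higher), 304 are listed at 0 in 1 library. Groups came from the labels. The steps were tested on simulated data and run in Python 3.11.15 with numpy 2.4.6 and pandas 2.3.3.

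The members and the gene lists were chosen with earlier results of these data known. Named by rule were RBMS1, the 9 genes, cell markers, and of each list the genes with the largest decrease, the largest increase and the highest level and those 2-fold different. SLC7A11, TXN, HTATIP2, GSR, ABCC1, MAFF, AMER1, RBX1, PGAM5, AKR1C1, AKR1C2, FTL, FUNDC1, GABARAPL2 and MRNIP were named outside this rule, after their values had been seen. The 6 lists of further targets and 3 lists of partners are each given once. Alternatives were 11 planned and 4 added after seeing the data.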

Additional observations from a re-analysis of the deposited data

How the results depend on the processing

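No paired analysis was possible because each group has 1 library. The alternatives were another pseudocount (0.1 or 5 FPKM), transcript set, value, scaling or filter, and, chosen after seeing the data, genes above 0 in both libraries, the authors' table, and 2 transcript sets with genes then at 0 kept. RBMS1 had a log2 ratio below 0 in all of them and moved beyond its within-library range only with 5 FPKM added (−1.73). SQSTM1 had a ratio below 0 in 12 of the 13 alternatives that give one, and was outside its range by coverage times length (−1.03) and in the authors' table (−1.12). By estimated fragments at equal depth SQSTM1 was at 52.4% of control, which is not 2-fold. It is listed at 0 in control cells with reference transcripts only, and at 0 in knockdown cells with the dominant transcript only. Genes brought to 0 by these 2 settings (664 and 730 genes) got no ratio there, which left 0 of the 9 genes 2-fold different instead of 1. With such genes kept, as genes at 0 are otherwise, SQSTM1 reversed to 4.47, 2-fold higher, with reference transcripts only and was at −7.26 with the dominant one, and the count was 1 in both. With these same 2 settings TXNRD1 turned to 0.34 and 0.77 and GCLM to 0.35 and 0.64. For both genes these settings leave out an assembled transcript of the control library, and the second also leaves out the less abundant reference transcripts. The median of the 9 genes ran from −0.10 to 0.08, and the number of further targets 2-fold different from 2 to 4. Over all genes the 313 lower and 331 higher ones became 422 and 458 with 0.1 FPKM added, 400 and 431 with reference transcripts only (561 and 609 with genes at 0 kept), 388 and 395 as TPM, 426 and 454 with no filter, 343 and 364 with the dominant transcript only (668 and 691 with genes at 0 kept), 133 and 124 with 5 FPKM added, 138 and 140 with a mean of at least 5 FPKM, and 171 and 169 among genes above 0 in both libraries. No scaling moved the median of all genes by over 0.1.

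With 1 library per group the spread between cultures is unknown. HMOX1 rests on about 212 and 182 fragments and GCLC on about 869 and 785. Gene intervals are sums of transcript limits, those of transcripts at 0 included, so they can be wider than counting error alone.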
